A study of Mus musculus with 53 samples.

Results

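The genes encoding subunits of the voltage-gated sodium channel were examined in brainstem, cerebellum, cortex and striatum of SCA3 mice and their wild-type controls. Members were chosen by symbol: every gene of the count table named Scn, a digit and a or b, with an extra final digit allowed. This gave 11 of 12372 genes, and 9 of them are described here: 6 that encode pore-forming (alpha) subunits (Scn1a, Scn2a1, Scn3a, Scn7a, Scn8a and Scn9a) and 3 that encode auxiliary (beta) subunits (Scn2b, Scn3b and Scn4b). Counts of members below are over these 9 genes. Scn2a1 is the older symbol of Scn2a. Genes of the family outside the table were not analysed here.

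Voltage-gated sodium channels open when a neuron is depolarised and carry the inward current of the rising phase of the action potential. A single large alpha subunit forms the pore and its gates, and the small single-span beta subunits set its gating and tie the channel to adhesion molecules at the axon initial segment and the node of Ranvier. Brain neurons rely mainly on the channels Nav1.1, Nav1.2, Nav1.3 and Nav1.6, encoded by Scn1a, Scn2a1, Scn3a and Scn8a.

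RNA was sequenced in 53 libraries from 14 male C57BL/6 mice aged 74 to 77 weeks, with at most 1 library per mouse and region. The SCA3 group consisted of 6 hemizygous MJD84.2 mice, a line that expresses the full human ATXN3 gene, its CAG repeat expanded, in all tissues from the human promoter, and the control group of 8 wild-type animals. The transgene was passed on from hemizygous parents. The mice took motor tests while ageing and received no treatment. Wild-type libraries numbered 8 in brainstem and striatum and 7 in cerebellum and cortex. SCA3 libraries numbered 6 in each region except striatum, which had 5.

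Library totals ranged from 31.7 to 76.7 M counts. Levels are given as CPM, a gene's counts per M counts of the normalised library total, and, where genes are compared with each other, as RPKM, the CPM per kilobase of exon. The dissections differed in content. A score of thalamic marker genes exceeded 5.5 in 5 libraries, the striatum of wild-type mice 7267058 and 7267059 and the brainstem of wild-type mouse 7267055 and SCA3 mice 9083514 and 9083515. No gene of a marker list was at 0 in a whole group. Summed markers of cerebellar granule cells, Purkinje cells and striatal projection neurons were highest in the groups of the labelled region. The striatal list nevertheless overlapped between cortex (632 to 3880 CPM) and striatum (2110 to 9401 CPM). Cortical glutamatergic markers overlapped between cortex (565 to 2226 CPM) and striatum (142 to 861 CPM). Only 1 of 10 hindbrain markers (Chat) was in the table, so the brainstem label could not be checked in this way. Counts assigned to mouse Atxn3 differed between the genotypes in striatum (log2 fold change 0.33 ± 0.06 SE, edgeR FDR 0.000116) and did not pass in the other regions. The SCA3 mice also carry human ATXN3 and reads were aligned to the mouse genome, so human reads may be among these counts. This was not tested. All counts come from bulk tissue, in which fewer cells of a type and less RNA per cell cannot be told apart.

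The genes lie in clusters on the mouse genome (GRCm38, GENCODE annotation). Chromosome 2 holds 5 of them: Scn3a (65457118 to 65567627, minus strand), Scn2a1 (65620771 to 65767447, plus strand), Scn1a (66270778 to 66440840, minus strand), Scn9a (66480080 to 66634962, minus strand) and Scn7a (66673425 to 66784914, minus strand). Scn3a and Scn2a1 are 53143 bases apart with no protein-coding gene between them, as are Scn1a and Scn9a (39239 bases) and Scn9a and Scn7a (38462 bases). Chromosome 9 holds Scn3b (40269217 to 40291618), Scn2b (45117782 to 45130070) and Scn4b (45138395 to 45154152) on the plus strand, and Scn2b and Scn4b are separated by 8324 bases. Scn8a lies on chromosome 15 (100869858 to 101045938, plus strand).

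The coding sequences of the pore genes are close relatives. In a common alignment of the GENCODE transcripts linked to RefSeq, the neighbours Scn2a1 and Scn3a were 83.2% identical, Scn1a and Scn2a1 82.5%, and Scn7a and Scn8a 58.5%, the lowest value among the pore genes. The pore genes had 5043 (Scn7a) to 6027 (Scn1a) coding bases. The beta subunits were shorter and less alike, with 645 to 684 coding bases and an identity between 40.0% (Scn2b and Scn3b) and 49.5% (Scn2b and Scn4b).

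This likeness touches few of the counted positions. Of all runs of 1 read length in a gene's transcripts, 0.763% in Scn1a, 0.747% in Scn2a1, 1.53% in Scn3a and 1.09% in Scn9a were also present in another of the 9 genes, and none in the remaining 5. The authors kept uniquely aligned reads, so reads within such shared runs may have been lost.

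Among the pore genes, which channel dominated depended on the region. Per length, Scn1a held 46.0% ± 2.7 (SD, n = 8) of the summed RPKM of the 6 pore genes in wild-type brainstem but 20.8% ± 4.9 (n = 7) in cortex. Scn2a1 showed the reverse, with 16.9% ± 4.2 (n = 8) in brainstem and 40.7% ± 3.2 (n = 7) in cerebellum. Scn8a stayed between 26.1% and 30.2% in the 4 regions. Scn3a contributed 12.5% in striatum and 1.11% in cerebellum. Scn9a held at most 1.55% (brainstem) and Scn7a at most 0.990% (cortex). The summed level of the 6 genes varied less between regions, from 112 ± 10.6 RPKM (SD, n = 8) in striatum to 135 ± 10.1 (n = 8) in brainstem.

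**Figure D1:**
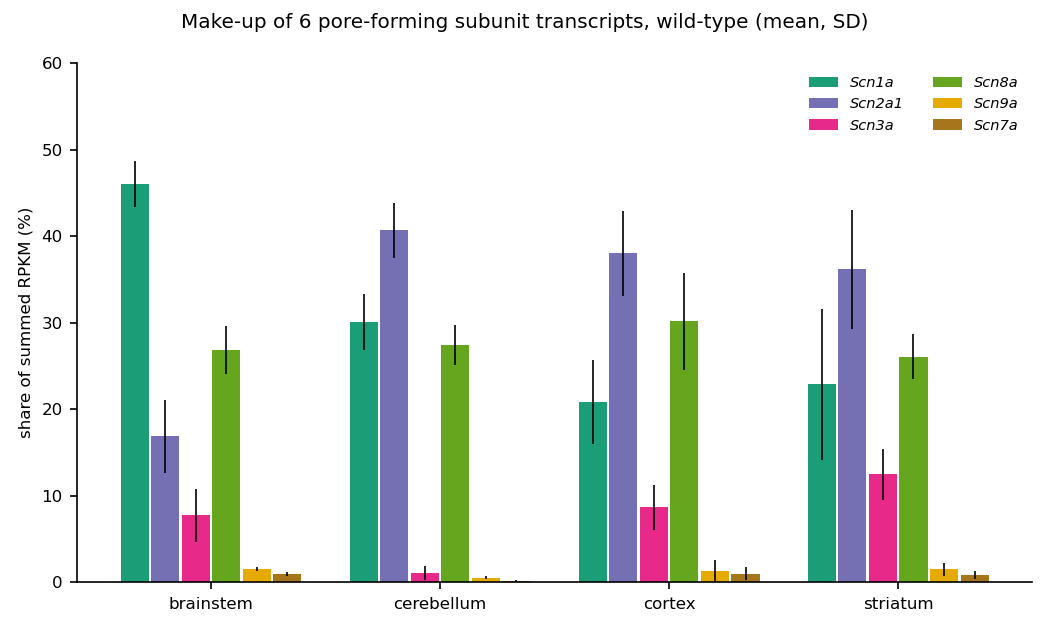
Share of the summed RPKM of 6 pore-forming subunit genes (percent, y axis) held by each of them in wild-type mice, by region, with bars for the mean and lines for the SD over 7 or 8 libraries. Scn1a leads in brainstem with 46.0% and Scn2a1 in the other regions.

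Regional levels of each gene were then compared in wild-type mice. Of 54 comparisons (9 genes, 6 region pairs), 36 passed an FDR of 0.05 in the edgeR likelihood ratio test, where 62.6% of the comparisons of all genes passed. Members called in a pair numbered 8 of 9 between brainstem and cerebellum (72.6% of all genes), 8 between cerebellum and striatum (69.5%), 7 between cerebellum and cortex (69.7%), 6 between brainstem and striatum (64.2%), 4 between brainstem and cortex (65.4%) and 3 between cortex and striatum (34.4%). Read against these shares, the number of calls was ordinary for genes of this table. Sizes differed more: the median absolute log2 difference between brainstem and cerebellum was 1.61 over the members and 0.36 over all genes, and between cortex and striatum 0.24 and 0.15.

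Cerebellum was the lowest region for several members. Scn3a, Scn3b, Scn4b, Scn7a and Scn9a were lower in cerebellum than in each other region, 5 of 9 members where 20.4% of all genes were. Scn2a1 and Scn2b were lower in brainstem than in each other region (14% of all genes), and Scn8a was lower in striatum (3.71%). A region above each of the others was found for Scn1a (brainstem, 14.6% of all genes) and Scn4b (striatum, 4.17%). No member was above each other region in cerebellum (20.9%) or cortex (6.73%), or below each of them in cortex (4.74%).

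The regions of a mouse are paired, so the same comparisons were repeated with the mouse as a replicate block. In edgeR 36 of 54 comparisons passed with the mouse as a fixed block, as without it. In limma-voom 37 passed with the mouse as a random block and 37 without a block. Neither block changed a call of its own tool. The tools differed in 3 calls: limma-voom without a block passed Scn4b (FDR 0.04998, edgeR 0.28) and Scn9a (0.00712, edgeR 0.31) between brainstem and cortex and did not pass Scn9a between cerebellum and cortex (0.147, edgeR 0.00138). By limma-voom Scn9a was thus not lower in cerebellum than in each other region.

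Scn1a encodes Nav1.1, the main channel of fast-spiking inhibitory neurons, and its loss of function causes Dravet syndrome. In wild-type mice it ranged from 460 to 624 CPM (median 507) in brainstem, from 293 to 373 (331) in cerebellum, from 129 to 309 (207) in cortex and from 146 to 436 (177) in striatum. The brainstem libraries lay above all libraries of the other regions, and cortex and striatum overlapped widely. Brainstem exceeded cerebellum 1.56-fold (FDR 0.000693), and cerebellum exceeded striatum 1.52-fold (FDR 0.00149). Striatum and cortex were not told apart by the test (1.02-fold, 95% interval of cortex over striatum 0.768 to 1.25, FDR 0.923). The highest striatal values, 436 and 299 CPM, belonged to the wild-type mice 7267059 and 7267058 with high thalamic scores.

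Scn2a1 encodes Nav1.2, the channel of excitatory axons in early life and of unmyelinated axons and dendrites later. Its range was 149 to 266 CPM (median 185) in brainstem, 386 to 590 (440.1) in cerebellum, 350.02 to 473 (389) in cortex and 223 to 409 (358) in striatum. All brainstem values except the top pair lay below those of the other regions, and the other 3 regions overlapped. Striatum exceeded brainstem 1.78-fold (FDR 6.33e-11). Neither the step from striatum to cortex (1.15-fold, FDR 0.214) nor that from cortex to cerebellum (1.18-fold, FDR 0.0871) passed, while cerebellum and striatum differed 1.35-fold (FDR 0.000856). Without the 5 libraries of high thalamic score the step from cortex to cerebellum passed (FDR 0.0430). None of these libraries came from cortex or cerebellum, and the log2 difference stayed at 0.24.

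Scn3a encodes Nav1.3, a channel known from the embryonic brain that falls after birth in rodents. The aged wild-type animals gave 69.9 to 179.9 CPM (median 115) in striatum, 48.3 to 167 (85.6) in brainstem and 60.7 to 121 (87.3) in cortex, against 2.29 to 23.7 (13.5) in cerebellum. The cerebellar values did not overlap with any other region, and the other 3 overlapped among themselves. Cortex exceeded cerebellum 7.18-fold (FDR 4.62e-14). Striatum over brainstem (1.32-fold, FDR 0.265) and brainstem over cortex (1.02-fold, FDR 0.947) did not pass.

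Scn8a encodes Nav1.6, the channel of the adult axon initial segment and node. It was the most even member, with 337 to 480 CPM (median 413) in brainstem, 348 to 482 (404) in cerebellum, 290 to 570 (410) in cortex and 259 to 425 (330) in striatum. The ranges of all 4 regions overlapped. Levels in striatum were lower than in brainstem (1.23-fold, FDR 0.0226), cerebellum (1.24-fold, FDR 0.0198) and cortex (1.27-fold, FDR 0.0237), and the other 3 regions were not told apart by the test (FDR between 0.793 and 0.936). These calls were fragile. The call against brainstem was lost without wild-type mouse 7267058 (FDR 0.0692) or 9083372 (0.0766), that against cerebellum without 9083375 (0.0626), and that against cortex without 7267058 (0.0991), 9082857 (0.0894) or 9083373 (0.205), and all 3 were lost in libraries with an RNA integrity number (RIN) of at least 7 (0.0846 to 0.104).

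Scn9a encodes Nav1.7, the channel of pain fibres, and Scn7a a divergent channel known as a sodium sensor of glia and circumventricular organs. Scn9a gave 16.3 to 24.1 CPM (median 20.7) in brainstem, 9.05 to 28.6 (15.02) in striatum, 3.41 to 39.7 (9.94) in cortex and 4.45 to 8.92 (7.96) in cerebellum. Brainstem, striatum and cortex were not told apart by the edgeR test (FDR between 0.310 and 0.905). Without wild-type mouse 7267055, the highest cortical value, brainstem exceeded cortex (log2 difference 0.82, FDR 0.0333, against 0.40 with it). Cortex exceeded cerebellum 2.33-fold (FDR 0.00138). Scn7a gave 5.87 to 12.99 CPM (median 10.01) in brainstem, 4.04 to 23.3 (6.36) in cortex, 3.32 to 14.6 (6.74) in striatum and 0.702 to 3.04 (2.29) in cerebellum. Its cerebellar range lay below the other 3, which overlapped, and striatum exceeded cerebellum 3.78-fold (FDR 6.41e-08).

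Scn2b encodes beta 2, which is joined to the pore by a disulphide bond and was the steadiest member between mice. Its range was 381 to 488 CPM (median 411) in cerebellum, 356 to 443 (404) in striatum, 306 to 362 (350.95) in cortex and 194 to 312 (220.5) in brainstem. Cerebellum and striatum overlapped over most of their ranges and were not told apart by the test (1.05-fold, FDR 0.475). Cortex exceeded brainstem 1.46-fold (FDR 3.38e-08). The 1.18-fold difference between striatum and cortex passed (FDR 0.0336) but was lost without any one of the wild-type mice 7267055 (FDR 0.0799), 7267058 (0.0921), 9082857 (0.0769), 9083371 (0.0706) or 9083372 (0.0783), and with a RIN of at least 7 (0.0750).

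Scn3b encodes beta 3, known for its early expression. It had 105 to 266 CPM (median 181) in cortex, 81.0 to 234.8 (198) in striatum, 54.0 to 106 (82.3) in brainstem and 4.10 to 31.2 (21.2) in cerebellum. Cerebellum did not overlap with the other regions. Striatum exceeded brainstem 2.24-fold (FDR 0.000403), brainstem exceeded cerebellum 4.96-fold (FDR 2.58e-11), and cortex and striatum were not told apart by the test (1.01-fold, FDR 0.979).

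Scn4b encodes beta 4, whose cytoplasmic tail can block the open pore and give rise to resurgent current. It was highest in striatum, with 474 to 1825 CPM (median 928), followed by brainstem with 279.9 to 608 (534), cortex with 49.8 to 590.1 (429.6) and cerebellum with 135 to 194 (151). Striatum and brainstem overlapped at the low end of the striatal values, and a single cortical library lay below the cerebellar range. Striatum exceeded brainstem 2.14-fold (FDR 0.000332), cortex exceeded cerebellum 2.43-fold (FDR 6.87e-05), and brainstem and cortex were not told apart by the edgeR test (1.28-fold, FDR 0.28). Striatal projection neuron markers summed to 632 to 3098 CPM in the wild-type cortical libraries, and their part in the cortical level was not tested.

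**Figure D2:**
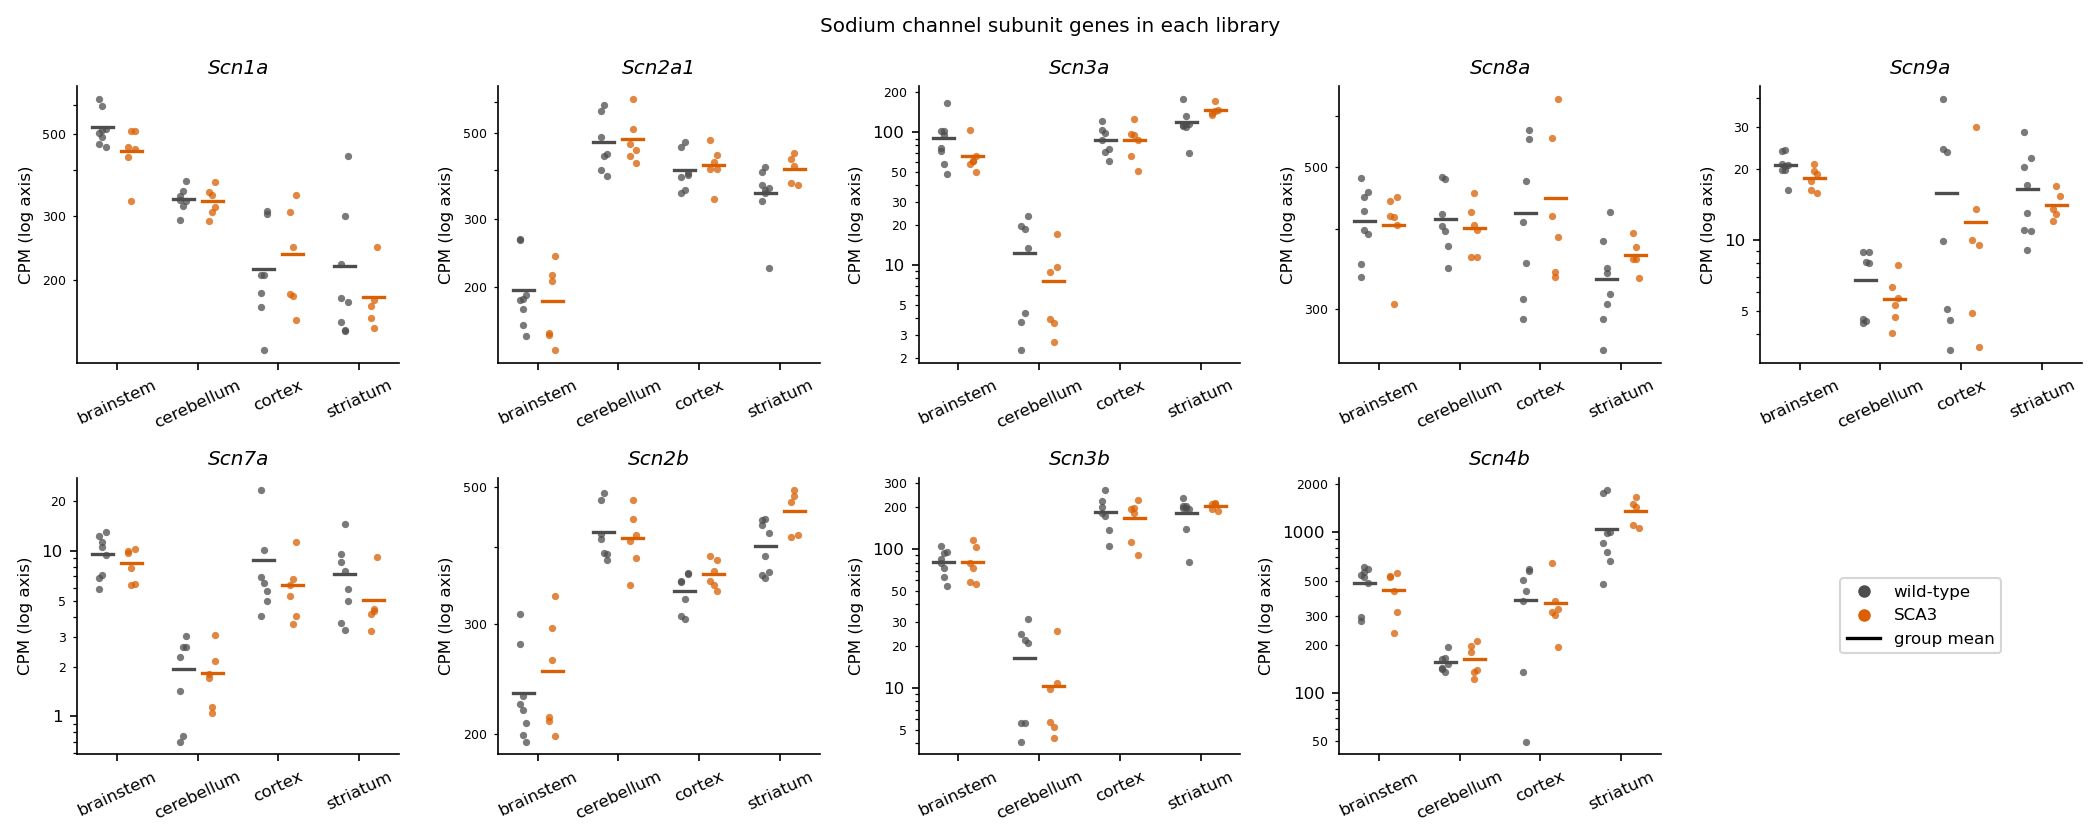
CPM of 9 sodium channel genes (log y axis, 1 panel per gene) in each library by region, with points for mice (wild-type grey, SCA3 orange) and bars for group means. Wild-type cerebellum lies below the other regions without overlap for Scn3a, Scn3b and Scn7a, whereas wild-type and SCA3 points overlap in every panel and region.

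The SCA3 mice were next compared with wild-type mice in each region. None of the 9 sodium channel genes passed the threshold in any region. With the edgeR likelihood ratio test 0 of 9 members were called in brainstem (1.92% of all genes were called), cerebellum (0.0647%), cortex (0.154%) and striatum (7.54%). At an unadjusted p below 0.05 the members numbered 0 in each region, where the share of all genes was 13.3%, 1.66%, 4.07% and 23.2%. The edgeR quasi-likelihood test, DESeq2 and limma-voom likewise called 0 members in every region, with 1 member at p below 0.05 for DESeq2 in cerebellum and 0 otherwise. The test of a genotype effect in any region called 0 members (4.73% of all genes), and the test of an effect differing between regions called 0 members (0.218%). Both joint tests had 0 members at an unadjusted p below 0.05, where 16.6% and 9.09% of all genes were. In these joint tests Scn3a had the smallest p-values of the 9 genes, with FDRs of 0.589 and 0.809.

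In every region the ranges of wild-type and SCA3 mice overlapped for each of the 9 genes. Of all genes, the ranges did not overlap for 1.38% in brainstem, 0.234% in cerebellum, 0.251% in cortex and 0.655% in striatum. The median log2 fold change of the members was −0.16 in brainstem, −0.05 in cerebellum, −0.01 in cortex and 0.16 in striatum, where the median of all genes lay between −0.0043 and 0.0028. Fitted values were above 0 for 1, 2, 4 and 6 of the 9 genes in these regions.

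How far the 4 abundant pore genes could have differed is shown by their intervals. Scn8a and Scn2a1 were bounded most closely: Scn8a in SCA3 brainstem was 0.987 times the wild-type level (95% interval 0.825 to 1.18) and in striatum 1.09 times (0.903 to 1.32), and Scn2a1 was 0.932 times (0.781 to 1.11) and 1.16 times (0.959 to 1.39). Scn1a was 0.863 times in brainstem (0.668 to 1.11), 0.988 times in cerebellum (0.759 to 1.28), 1.097 times in cortex (0.843 to 1.43) and 0.819 times in striatum (0.626 to 1.07). The intervals of Scn3a were wider, from 0.464 to 1.19 in brainstem and from 0.758 to 2.04 in striatum.

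In striatum the highest Scn1a values came from the libraries richest in thalamic markers. The SCA3 mice had 158, 176.5, 246, 171 and 148 CPM, within the wild-type range of 146 to 436. The fitted log2 fold change was −0.29 ± 0.20 (SE, FDR 0.387), and without the 5 libraries of high thalamic score it was 0.08 (FDR 0.880). Summed over the 10 thalamic markers in the table, the level was 338 to 3088 CPM in wild-type and 323 to 612 in SCA3 striatum. The sums of 3088 and 1857 CPM in wild-type mice 7267059 and 7267058 came with 436 and 299 CPM of Scn1a. The other wild-type libraries followed no such order, with 222 CPM of Scn1a at a sum of 368 CPM (mouse 9082857) and 154 CPM at 573 CPM (mouse 7267055). Without wild-type mouse 7267059 alone the log2 fold change was −0.07, so the size of this difference rests on that library.

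Scn7a in striatum had the fitted difference farthest from 0 in that region. The SCA3 mice had 3.27, 4.33, 9.18, 4.18 and 4.45 CPM, and the wild-type mice 3.32 to 14.6 (median 6.74). All SCA3 values but the lowest lay inside the wild-type range, and the medians of the 2 groups were 4.33 and 6.74 CPM. The log2 fold change was −0.52 ± 0.36 (SE), a level 0.698 times that of wild-type (95% interval 0.429 to 1.13), with an FDR of 0.392 (edgeR). Over 28 alternatives it ran from −0.84 to 0.01, with an FDR of at least 0.136. It was −0.29 without wild-type mouse 7267058, −0.84 without SCA3 mouse 9082853, and 0.01 with the striatal projection neuron score as a covariate on striatum alone. That score itself had a higher median in SCA3 than in wild-type striatum (8.94 against 8.17).

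The beta genes of striatum also stayed below the threshold. Scn2b had 473, 483, 418, 415 and 494 CPM in SCA3 mice and 356 to 443 (median 404) in wild-type mice. The top 3 SCA3 values exceeded the wild-type range and the other 2 lay within it, for a log2 fold change of 0.19 ± 0.10 (SE, edgeR FDR 0.254). Scn4b had 1499, 1427, 1064, 1101 and 1654 CPM in SCA3 mice and 474 to 1825 (median 928) in wild-type mice, all SCA3 values lying within the wild-type range. Its level was 1.30 times that of wild-type (95% interval 0.836 to 2.01, FDR 0.496). Scn4b was higher in the libraries with more striatal projection neuron markers (11 of 12 in the table), though not in strict order: the lowest sums, 2110 and 3017 CPM, came with 659 and 474 CPM of Scn4b, and the highest, 9401 and 9153 CPM, with 1755 and 1825 CPM. The summed level was 5763 to 8504 CPM in SCA3 and 2110 to 9401 CPM in wild-type striatum. With the score of these markers as a covariate, fitted on striatum alone, the log2 fold change of Scn4b was −0.04 (FDR 0.9998), against 0.38 without it in the same libraries. The median marker sum was itself higher in SCA3 mice (8008 against 4575 CPM), so this fit cannot tell genotype and marker content apart.

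In cerebellum the low members Scn3a and Scn3b had the smallest p-values, both above 0.05. Scn3a was 2.29 to 23.7 CPM (median 13.5) in wild-type and 2.65 to 17.2 (6.43) in SCA3 mice, and Scn3b was 4.10 to 31.2 (21.2) and 4.38 to 25.8 (7.79). The SCA3 values of both genes lay within the wild-type range. Apart from SCA3 mouse 9082853 they reached only 9.65 CPM for Scn3a and 10.9 for Scn3b, below the wild-type medians. The log2 fold changes were −0.68 ± 0.36 (SE) for Scn3a and −0.66 ± 0.34 for Scn3b, both with an edgeR FDR of 0.9999, and the 95% intervals of the ratio ran from 0.384 to 1.01 and from 0.397 to 1.002. Without SCA3 mouse 9082853, the highest SCA3 value of both genes, they were −1.09 (FDR 0.688) and −1.17 (FDR 0.276).

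These genes were low in the cerebellar libraries with high levels of Purkinje cell markers. The summed level of 5 such markers was 9035, 8693 and 8051 CPM in the wild-type mice 7267059, 9083371 and 9083375, where Scn3a was 4.39, 3.75 and 2.29 CPM. In the other 4 wild-type mice the sum was 5706 to 6540 CPM, and Scn3a was 13.5 to 23.7, Scn3b 21.2 to 31.2 and Scn9a 7.96 to 8.92 CPM. Among SCA3 mice the sum was highest at 8039 and 8013 CPM, with 3.70 and 2.65 CPM of Scn3a, and lowest at 5480 CPM in mouse 9082853, with 17.2 CPM. No fit with a Purkinje cell score was run. With the thalamic score as a covariate, fitted on cerebellum alone, the log2 fold changes of Scn3a and Scn3b were 0.03 and −0.07. With the striatal projection neuron score they were −0.14 and −0.24. No cerebellar library exceeded the thalamic score of 5.5. Striatal projection neuron markers summed to 323 to 389 CPM in wild-type cerebellum, against 2110 to 9401 CPM in wild-type striatum. What these scores measure in cerebellum was not tested, so no conclusion is drawn from these fits.

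**Figure D3:**
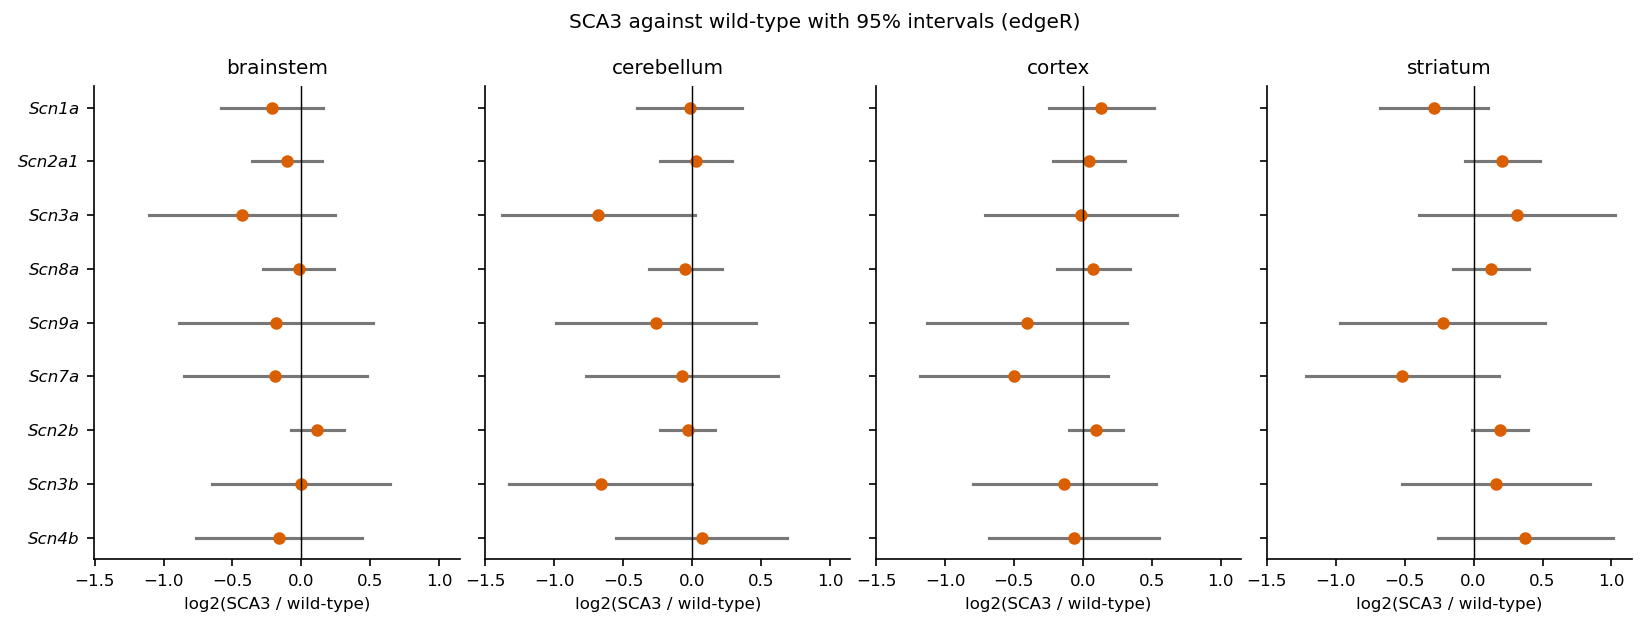
Log2 of SCA3 over wild-type (x axis) for 9 genes in each region, with points for the edgeR estimate and lines for the 95% interval. Every interval includes 0. Those of Scn3a and Scn3b in cerebellum reach it only at their upper end, and that of Scn2b in striatum only at its lower end.

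In brainstem the fitted difference farthest from 0 was that of Scn3a (log2 fold change −0.43, edgeR FDR 0.643). Scn3a was 48.3 to 167 CPM (median 85.6) in wild-type and 50.4 to 105 (61.2) in SCA3 mice, the SCA3 values lying within the wild-type range. The 95% interval of the ratio ran from 0.464 to 1.19. Without wild-type mouse 7267059, the highest wild-type value, the log2 fold change was −0.24 (FDR 0.880), and without SCA3 mouse 9083513, the highest SCA3 value, −0.60 (FDR 0.481).

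Cortex gave no smaller p-value than 0.155, for Scn7a (log2 fold change −0.50 ± 0.35 SE, edgeR). Scn7a was 4.04 to 23.3 CPM (median 6.36) in wild-type and 3.63 to 11.3 (5.77) in SCA3 cortex, and the ranges overlapped. A single wild-type value, 23.3 CPM in mouse 7267055, lay far above the others, and without that mouse the log2 fold change was −0.03 (FDR 0.9996). Without SCA3 mouse 9082853 it was −0.76 (FDR 0.658).

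The spread between mice set what could be seen. The biological coefficient of variation in the edgeR fit was 0.393 to 0.460 for Scn9a, Scn3a, Scn7a, Scn3b and Scn4b (96.6th to 97.9th percentile). Scn1a (0.241) was lower, and Scn8a (0.169), Scn2a1 (0.167) and Scn2b (0.126) came nearest to the median of all genes, 0.113. For these last 3 genes the 95% intervals of SCA3 over wild-type lay between 0.781 and 1.39 in every region.

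Part of this spread was shared between genes. Over the 36 pairs of members, deviations of log2 CPM from the 8 group means had a Pearson r of at least 0.7 for 1 pair and of at most −0.7 for 1 pair. These r are descriptive, over 53 libraries from 14 mice that share library, depth and composition. Scn3a and Scn3b went together (r = 0.86), with r = 0.96 over the levels themselves. Scn8a and Scn9a went opposite ways (−0.84, and −0.63 over the levels). Scn2a1 and Scn2b, which had r = 0.88 over the levels, had 0.67 in the deviations.

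The opposition of Scn8a and Scn9a was visible in cortex. In the 13 cortical libraries Scn8a ran from 290 to 638 CPM and Scn9a from 3.41 to 39.7. The summed level of 6 cortical glutamatergic markers was highest in SCA3 mouse 9083515 (2226 CPM) and wild-type mouse 7267058 (2134 CPM), which had 3.53 and 5.12 CPM of Scn9a and 638 and 475 CPM of Scn8a. It was lowest in wild-type mouse 9083371 (565 CPM) and SCA3 mouse 7267056 (575 CPM), which had 24.2 and 30.1 CPM of Scn9a and 311 and 343 CPM of Scn8a. Both genotypes were spread over this range.

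**Figure D4:**
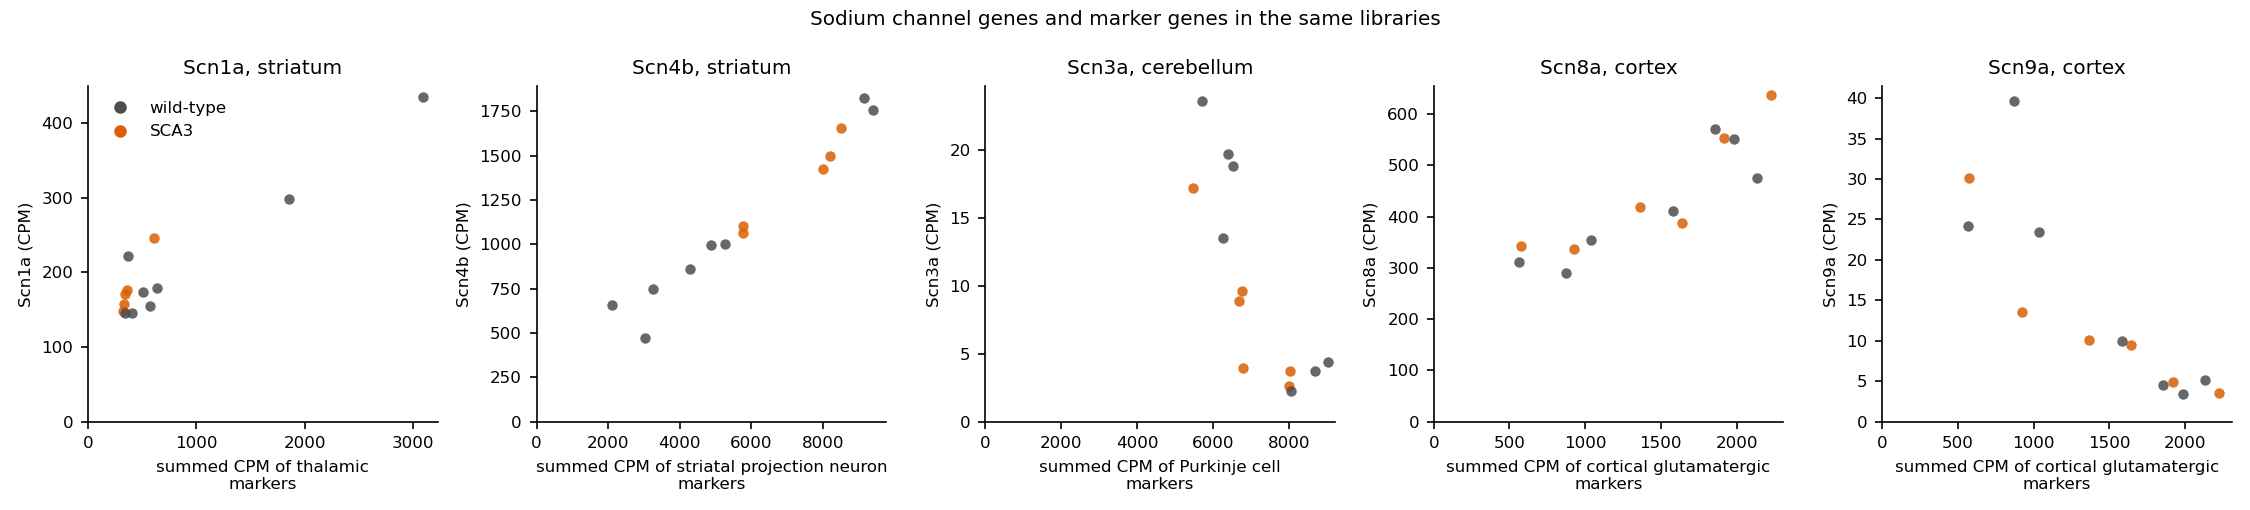
CPM of a sodium channel gene (y axis) against the summed CPM of a marker list (x axis) in each library of a region, with wild-type in grey and SCA3 in orange. Scn1a is highest in the pair of libraries with the most thalamic markers, Scn4b rises with striatal projection neuron markers in striatum, Scn3a falls with Purkinje cell markers in cerebellum, and in cortex Scn8a rises and Scn9a falls with glutamatergic markers.

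**Figure D5:**
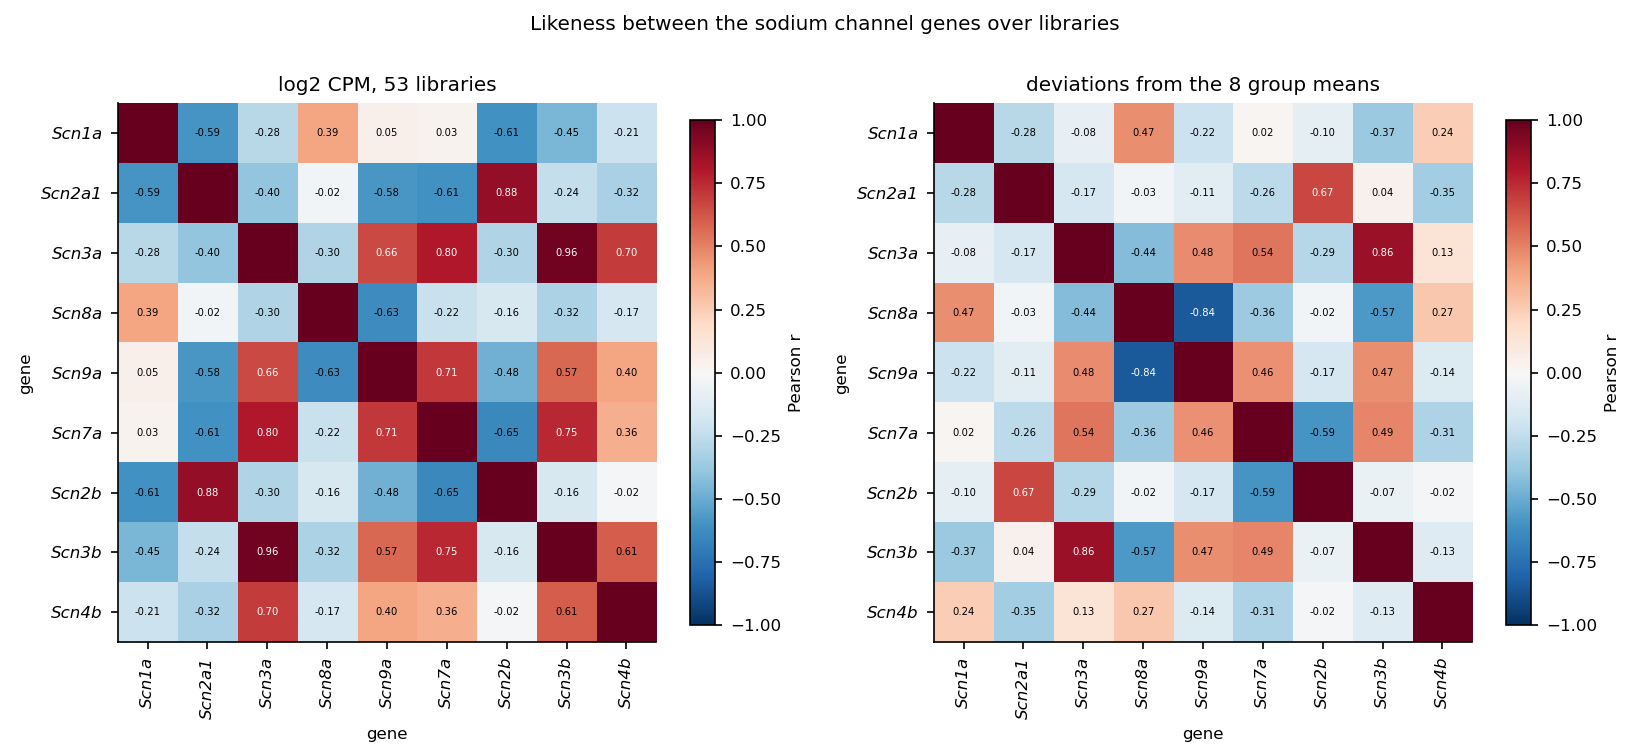
Pearson r between 9 genes over 53 libraries (colour and number), for log2 CPM on the left and for its deviations from the 8 group means on the right. Scn3a and Scn3b stay alike in both, and Scn8a stands against Scn9a on the right (−0.84).

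The genes whose levels were most like each member over the 53 libraries were all outside the family. Scn1a was most like Luzp1 (r = 0.96), Gm13629 (0.95) and Vamp1 (0.95), a synaptic vesicle protein. Scn4b was most like Tgfa (0.94), Pcp4l1 (0.93) and Pik3c2b (0.93), and Scn2b like Gabrd (0.92), the delta subunit of the GABA-A receptor, Pogz (0.91) and Ryr1 (0.91). Scn3a was most like Oprk1 (0.97), the kappa opioid receptor, and Scn3b like D430019H16Rik (0.99). For the others the first gene was Armc8 for Scn2a1 (0.96), Eif1a for Scn7a (0.92), Adora1 for Scn8a (0.84) and Rps6ka6 for Scn9a (0.96). Scn8a, the member with the least difference between regions, had the lowest of these values.

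In deviations from the group means the first gene was Gm13629 for Scn1a (r = 0.92), Klhl23 for Scn2a1 (0.86), Gabbr1 for Scn2b (0.83), Tac1 for Scn3a (0.88), Pnma2 for Scn3b (0.95), Inf2 for Scn4b (0.89), Dpysl3 for Scn7a (0.79), Adora1 for Scn8a (0.92) and Rps6ka6 for Scn9a (0.94). Adora1 and Rps6ka6 thus led on both measures for Scn8a and Scn9a.

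Gm13629, an antisense RNA gene, starts next to Scn1a on the opposite strand. The RefSeq starts of the pair are 42 bases apart, and the 120 bases that end next to the Scn1a start and hold the Gm13629 start (chr2:66440838-66440957, GRCm38.p6, minus strand, 5′ to 3′ towards Scn1a) are shown because this gene had the closest deviations to Scn1a. Capitals mark the bases between the 2 starts.
Scn1a and Gm13629: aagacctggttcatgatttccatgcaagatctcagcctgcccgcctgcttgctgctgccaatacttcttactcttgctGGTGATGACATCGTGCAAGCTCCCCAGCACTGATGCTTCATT
Gm13629 had 9.61 to 12.5 CPM (median 11.7) in wild-type brainstem, 7.56 to 9.79 (8.43) in cerebellum, 1.42 to 4.87 (3.09) in cortex and 1.31 to 11.8 (2.43) in striatum. From its start it runs away from Scn1a and overlaps the span of Scn9a by 65947 bases, 180 of them exonic. Libraries carried no strand information, so reads from these 180 bases cannot be assigned to one of the 2 genes. Its r with Scn9a was −0.08 over the libraries and −0.18 in deviations.

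Proteins that work with the channel were examined by lists. Intracellular partners, which bind or modify the channel's cytoplasmic parts, had 14 of 14 genes in the table. In SCA3 mice 0 were called in brainstem (1.92% of all genes were), cerebellum (0.0647%) and cortex (0.154%), and in striatum 1 was higher (2.07%) and 1 lower (5.47%). At an unadjusted p below 0.05 there were 2 in brainstem (13.3% of all genes), 0 in cerebellum (1.66%), 0 in cortex (4.07%) and 4 in striatum (23.2%). Nedd4l, a ubiquitin ligase that removes channels from the membrane, was 277 to 365 CPM (median 325) in SCA3 and 153 to 339.7 (217) in wild-type striatum (log2 fold change 0.50, edgeR FDR 0.00376). Fgf12, a fibroblast growth factor homologue that modulates inactivation, was 98.6 to 157 CPM (114) and 99.7 to 218 (171) (−0.49, FDR 0.00739). The ranges of both genes overlapped between the genotypes. Fgf12 was lost without any one of SCA3 mice 7267054 (FDR 0.0646), 7267056 (0.0511) and 9083515 (0.0578).

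Of the scaffold of the axon initial segment and node, 11 of 12 genes were in the table (ankyrins, spectrins, neurofascin and their partners), and 0 were called in brainstem (1.92% of all genes), cerebellum (0.0647%), cortex (0.154%) or striatum (7.54%). Those at an unadjusted p below 0.05 numbered 4 in brainstem (13.3% of all genes), 0 in cerebellum (1.66%), 1 in cortex (4.07%) and 2 in striatum (23.2%). Their median log2 fold change was −0.05 in brainstem and 0.10 in striatum.

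The sodium pump, which restores the gradient that the channels spend, formed the third list with other sodium conductances (13 genes of the table are described). In brainstem 1 was lower (1.15% of all genes were) and 0 higher (0.776%), and in striatum 5 were lower (5.47%) and 1 higher (2.07%). Cerebellum (0.0647%) and cortex (0.154%) had 0 called. The unadjusted p was below 0.05 for 3 of the 13 in brainstem (13.3% of all genes), 1 in cerebellum (1.66%), 0 in cortex (4.07%) and 7 in striatum (23.2%). Atp1b3, a beta subunit of the pump, fell in both regions. It was 124.7 to 156 CPM (median 143) in SCA3 and 144 to 211 (187) in wild-type brainstem (log2 fold change −0.34, FDR 0.00206) and 99.7 to 120.34 (102) and 120.62 to 175 (129.8) in striatum (−0.34, FDR 0.00312). The striatal ranges lay side by side without overlap (0.655% of all genes did not overlap there), and the brainstem ranges overlapped. Its brainstem call held in 28 of 28 alternatives, and its striatal call in 24 of 28. In brainstem mature oligodendrocyte markers summed to 9407 to 15897 CPM (median 12049) in SCA3 and 10304 to 21384 (18879) in wild-type mice, and astrocyte markers (7 of 7 in the table) to 3492 to 5016 (3922) and 4025 to 8521 (6276). The part of these cell types in the call was not tested.

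The other striatal calls of this list were Atp1b1 (−0.31, FDR 0.0386) and Atp1b2 (−0.41, FDR 0.0123) of the pump, Fam155a (−0.70, FDR 0.000834), an ancillary subunit of the leak channel, Slc8a1 (−1.05, FDR 0.00410), a sodium-calcium exchanger, and Unc79 (0.35, FDR 0.00722), another leak channel protein. Slc8a1 was 69.5 to 197 CPM (median 87.3) in SCA3 and 69.3 to 395 (272) in wild-type striatum, with overlapping ranges.

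These striatal calls depended on the libraries in the fit. Fitted on striatum alone, none of the 8 striatal partner calls passed (FDR 0.0867 to 0.338), while the log2 fold changes hardly moved (Atp1b3 −0.34, Slc8a1 −1.05 and Nedd4l 0.50). With the striatal projection neuron score as a covariate in these libraries the fold changes were smaller: −0.33 for Slc8a1, −0.28 for Fam155a, −0.13 for Fgf12, −0.05 for Atp1b1, −0.15 for Atp1b2, −0.26 for Atp1b3, 0.13 for Unc79 and 0.22 for Nedd4l (FDR 0.555 to 0.9998). The median sum of these markers was 8008 CPM in SCA3 and 4575 CPM in wild-type striatum. Genotype and marker content thus went partly together, and this fit cannot tell them apart. Without the 5 libraries of high thalamic score Atp1b3 (FDR 0.0322), Fam155a (0.0246) and Slc8a1 (0.0265) passed and the other 5 did not (0.0608 to 0.290). In libraries with a RIN of at least 7 Atp1b3 alone of the 8 passed (FDR 0.0132), the others having an FDR of 0.0646 to 0.287, and the log2 fold changes of Slc8a1 (−0.66) and Fgf12 (−0.30) were smaller. Atp1b1 did not pass in limma-voom without a block (FDR 0.0535) or with the mouse as a random replicate block (0.0594), and the other 7 passed in both (0.00506 to 0.0315). Leaving out single mice, Unc79 was lost without SCA3 mouse 7267056 (0.0746), Atp1b2 without any of 4 mice (SCA3 7267054, 7267056 and 9083515, wild-type 7267059; 0.0589 to 0.0708) and Atp1b1 without any of 7 (SCA3 7267054, 7267056 and 9083515, wild-type 7267058, 7267059, 9083372 and 9083373; 0.0567 to 0.184). Mature oligodendrocyte markers (9 of 9 in the table) summed to 6049 to 9197 CPM in SCA3 and 6548 to 19060 CPM in wild-type striatum, astrocyte markers to 4423 to 4932 (median 4548) and 4277 to 6037 (5504), and their part in these calls was not tested.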

How the data were processed

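Poly-A RNA was sequenced with a kit that keeps no strand. Per the submitters' processing notes and the study's methods, the authors demultiplexed with bcl2fastq 1.8, checked read quality with FastQC 0.11.2, cleaned reads with Sickle and cutadapt 1.10, aligned them uniquely to GRCm38 with STAR 2.3.0e and counted them per RefSeq gene with HTSeq 0.6.1. The deposited values are raw counts per gene and library, already limited by the authors to genes above a mean CPM (the lowest mean in the table was 4.07), and the authors tested them with edgeR 3.14.0. Genes below that filter were not analysed here.

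The counts were fitted as deposited in edgeR 4.0.16 (R 4.3.3; TMM, 8 groups of region and genotype, 53 libraries, likelihood ratio test), with Benjamini-Hochberg adjustment over all 12372 genes and an FDR threshold of 0.05. Each replicate of a group was a separate mouse. Log2 CPM used a prior count of 2, and RPKM the merged exons of GENCODE transcripts linked to RefSeq. Libraries of 1 mouse are paired by its number: deviations of same-mouse libraries correlated at a mean r of 0.0904 to 0.186 over the 6 region pairs. Some genes and sequences are not reported here. Of the genes the symbol rule found, 9 are named, with the genes most like each and those partner genes that passed the threshold. The members, marker lists and partner lists were chosen with earlier results of these data known. Alternatives were the quasi-likelihood test, DESeq2 1.42.0, limma-voom (limma 3.58.1), other size factors, a minimum of 10 counts, each region alone, RNA integrity, mouse number series, marker scores as covariates, the mouse as a block and leaving out each mouse. The striatal projection neuron score and leaving out the libraries of high thalamic score were chosen after seeing the data.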

Additional observations from a re-analysis of the deposited data

Results flagged for a closer look

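Within a group of 5 to 8 mice, 7 of 72 groups (9 genes, 4 regions, 2 genotypes) held a CPM value far from the others by Dixon's test, which chance alone does in about 1 in 20 groups. Scn8a was 306 CPM in the brainstem of SCA3 mouse 9083514, where the next value was 405. Scn2a1 was 223 CPM in the striatum of wild-type mouse 7267059, with the next at 334. Both of these libraries had high thalamic scores.

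Scn3a was 167 CPM in the brainstem of wild-type mouse 7267059 (next value 103) and 105 in that of SCA3 mouse 9083513 (next 65.99). Scn3b was 25.8 CPM in the cerebellum of SCA3 mouse 9082853 (next 10.9). Scn7a was 23.3 CPM in the cortex of wild-type mouse 7267055 (next 10.2) and 9.18 in the striatum of SCA3 mouse 9082853 (next 4.45).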

How the results depend on the processing

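None of the 9 sodium channel genes was called between SCA3 and wild-type mice under any alternative that was run. An unadjusted p below 0.05 was most frequent for Scn3b (6 of 28 alternatives) and Scn3a (5) in cerebellum and Scn2b (4) in striatum. The number of wild-type region comparisons called was 32 to 37 of 54 over the alternatives, 33 to 36 without a single mouse, 36 with the mouse as a fixed replicate block and 37 with it as a random replicate block. No called fold change reversed. Of 1452 fold changes below the threshold set against an alternative, 106 had another sign. With the longest transcript in place of merged exons, the mean RPKM of Scn2b in wild-type mice became 90.7 in cerebellum, 72.8 in cortex and 86.0 in striatum, a shift larger than the spread between mice. Without the 5 libraries of high thalamic score, 306 genes of the table were called in striatum in place of 933, and 88 with striatum fitted alone. The lowest count of the 9 genes in any library was 30, for Scn7a.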
